A study of Mus musculus with 15 samples.

Results

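The genes examined here encode histones, the proteins around which DNA is wound in nucleosomes. They were the GENCODE version M21 protein-coding genes whose symbol begins with Hist1h, Hist2h, Hist3h, Hist4h, H2af, H1f or H3f3, and there were 82 of them among 21938 protein-coding genes on chromosomes 1 to 19, X and Y. The 67 genes with a Hist symbol are called clustered below, and the 15 genes with an H2af, H1f or H3f3 symbol are called variant. For each gene, the highest-scoring H3K4me3 summit within 1 kb of any annotated transcription start site (TSS) was taken. A summit is the position of strongest enrichment within a peak, and its score was read as −log10 of the q-value given by the peak caller.

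Trimethylation of lysine 4 of histone H3 (H3K4me3) had been measured by native ChIP-seq in amygdala nuclei of adult male mice. The design compares wild-type (WT) mice with Kmt2a-HET mice, Kdm5c-KO mice and double mutants (DM), all of the F1 generation of 129S1/SvImJ and C57BL/6J mice, so that every group has a hybrid background. Only the WT summits were analysed here, from 2 mice whose peaks were deposited as 1 list, and the mutant genotypes were not analysed here. Every value below is therefore a single pooled value with no spread between mice, no test was possible, and the Wilson intervals beside shares describe counting error and nothing else. Scores are significance values that depend on depth as well as on enrichment, and the depth behind each score is unknown from the list.

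Clustered histone genes, also called replication-dependent, supply core and linker histones while DNA is being copied. They are short and without introns, lie together in a few clusters, and end in messages that carry a conserved 3′ stem-loop in place of a poly(A) tail. Variant histones are made outside S phase as well, from genes scattered over the genome, and they replace clustered histones in cells that no longer divide, such as neurons. H3K4me3 marks nucleosomes around the start sites of active or poised genes.

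The WT list held 24139 summits on these chromosomes, with a median score of 102.3. A summit lay within 1 kb of a TSS in 64.7% of all protein-coding genes, and the median best score of those genes was 194.6 with quartiles of 129.8 and 230.2. The labelled tissue was checked against marker genes. All 8 neuronal markers, Rbfox3 and Snap25 among them, had a promoter summit, as did 4 of 4 oligodendrocyte, 4 of 4 astrocyte and 3 of 3 endothelial markers. The medians of these lists were 209.27, 98.79, 61.96 and 22.78. None of 7 genes of other organs had one, including the liver gene Alb and the pancreatic gene Ins2. The list thus represents a mixture of brain cell types, and fewer cells of a type cannot be told apart from a weaker mark per cell.

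The promoters below span 250 bases before to 50 bases after the start of the gene, from RefSeq on GRCm38.p6, and are written 5′ to 3′ on the strand of the gene. RefSeq promoters were matched for 76 of the 82 genes. They show the clustered gene with the highest score (Hist4h4), the highest-scoring H4 gene of the Hist1 cluster (Hist1h4d), a gene with the lowest score (Hist1h2bk), a linker histone gene without a promoter summit (Hist1h1c) and the variant gene with the highest score (H3f3b). Capitals mark letters found on either strand and anywhere in the window. The letters are those of the CCAAT box bound by NF-Y, the TATA box as TATAAA and the octamer ATTTGCAT bound by Oct factors. In Hist1h2bk, TTTATA begins at base 53 of the 300 and is not shown to be a TATA box of that gene.
Hist4h4, chr6:136804382-136804681, minus strand: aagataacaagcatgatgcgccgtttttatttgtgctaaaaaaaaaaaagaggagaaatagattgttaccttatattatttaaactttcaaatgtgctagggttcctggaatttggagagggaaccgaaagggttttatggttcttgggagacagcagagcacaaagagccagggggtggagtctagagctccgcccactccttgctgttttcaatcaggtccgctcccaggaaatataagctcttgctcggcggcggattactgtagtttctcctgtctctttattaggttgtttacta
Hist1h4d, chr13:23581318-23581617, plus strand: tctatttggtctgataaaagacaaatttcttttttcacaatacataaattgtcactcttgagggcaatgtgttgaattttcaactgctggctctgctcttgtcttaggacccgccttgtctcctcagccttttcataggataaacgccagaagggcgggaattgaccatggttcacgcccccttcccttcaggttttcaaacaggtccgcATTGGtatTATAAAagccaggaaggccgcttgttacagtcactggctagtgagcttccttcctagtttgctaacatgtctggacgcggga
Hist1h2bk, chr13:22035571-22035870, plus strand: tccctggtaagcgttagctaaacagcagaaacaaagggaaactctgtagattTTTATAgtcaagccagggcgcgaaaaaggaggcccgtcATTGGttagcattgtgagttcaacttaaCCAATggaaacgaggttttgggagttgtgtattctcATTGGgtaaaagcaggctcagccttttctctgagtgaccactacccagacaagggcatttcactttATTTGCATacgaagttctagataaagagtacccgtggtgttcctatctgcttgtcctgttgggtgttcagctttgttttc
Hist1h1c, chr13:23738557-23738856, plus strand: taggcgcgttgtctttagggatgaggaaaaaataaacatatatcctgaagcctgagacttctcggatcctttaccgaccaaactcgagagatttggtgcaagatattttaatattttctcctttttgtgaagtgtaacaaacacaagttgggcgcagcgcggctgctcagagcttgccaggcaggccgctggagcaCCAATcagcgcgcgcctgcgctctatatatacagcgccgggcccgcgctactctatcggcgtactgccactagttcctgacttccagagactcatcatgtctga
H3f3b, chr11:116024455-116024754, minus strand: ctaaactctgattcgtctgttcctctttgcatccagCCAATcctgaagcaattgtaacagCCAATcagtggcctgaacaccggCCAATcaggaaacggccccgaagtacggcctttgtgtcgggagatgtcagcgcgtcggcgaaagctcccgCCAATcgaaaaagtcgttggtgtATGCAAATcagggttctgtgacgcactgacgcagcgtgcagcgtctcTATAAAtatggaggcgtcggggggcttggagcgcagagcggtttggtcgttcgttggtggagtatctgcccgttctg

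TATAAA was found more often in clustered than in variant promoters, CCAAT was frequent in both, and the elements differed between families. CCAAT, or its reverse complement ATTGG, was present in 53 of the 62 clustered genes with a RefSeq promoter (85.5%), in 10 of 14 variant genes (71.4%) and in 42.3% of all protein-coding genes matched. It was found in every matched clustered H1, H2A, H2B and H3 gene but in 3 of 12 H4 genes. TATAAA or TTTATA was present in 35 of 62 clustered genes (56.5%), 1 of 14 variant genes, namely H3f3b, and 14.6% of all genes. The octamer ATTTGCAT, or ATGCAAAT on the other strand, was present in 7 of 18 H2A and 7 of 16 H2B clustered genes and in no clustered H1, H3 or H4 gene. It was present in 1 of 14 variant genes (7.14%), again H3f3b, and in 1.9% of all genes. Over all 32851 RefSeq promoter windows of the same length, the shares were 37.4%, 13.6% and 1.74%. The 3 letter strings were searched on both strands and cannot overlap by more than a few letters. The windows of Hist1 H2A and H2B genes transcribed away from each other, with TSSs 176 to 302 bp apart, share sequence. A match between such TSSs can be counted for both genes, so the counts of genes are not counts of separate elements. A match is a description of the letters and not evidence of a bound factor.

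The 3′ stem-loop, by which clustered histone messages are processed and kept stable, was searched in the 150 bases after the stop codon, on the strand of the gene only, as GGC, any base, CTT, any base, T, any base, AG, any base and GCC in a row. It was found in 65 of 21938 protein-coding genes (0.296%). Of these, 64 were histone genes examined here, 63 clustered and 1 variant, H2afx. The variant gene H2afx is known to yield a message with a stem-loop as well as a polyadenylated one. The clustered genes without these letters were Hist2h2be, Hist1h4j, Hist1h2an and Hist1h4b. The most frequent form was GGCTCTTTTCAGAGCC, in 41 genes, followed by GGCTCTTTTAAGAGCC in 9 and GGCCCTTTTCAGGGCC in 8. Examples are given with 5 bases on each side, on GRCm38, with the 16 bases of the stem-loop in capitals. They were chosen to show the element in genes with high and low scores, in different families and in H2afx.
Hist4h4, chr6:136803993-136804018, minus strand: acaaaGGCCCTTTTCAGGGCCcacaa
Hist1h4d, chr13:23581945-23581970, plus strand: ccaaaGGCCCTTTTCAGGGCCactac
Hist1h2bk, chr13:22036295-22036320, plus strand: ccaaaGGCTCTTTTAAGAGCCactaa
Hist1h1c, chr13:23739507-23739532, plus strand: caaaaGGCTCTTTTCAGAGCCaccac
Hist2h2ab, chr3:96220328-96220353, plus strand: aaaaaGGCTCTTTTAAGAGCCaccaa
Hist1h3g, chr13:23535884-23535909, plus strand: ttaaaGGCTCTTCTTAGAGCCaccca
H2afx, chr9:44335235-44335260, plus strand: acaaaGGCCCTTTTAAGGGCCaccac

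Most clustered and most variant genes had a promoter summit, but the summits of clustered genes scored lower. Among clustered genes, 53 of 67 had a promoter summit (79.1%, 95% Wilson interval 67.9 to 87.1). Among variant genes, 10 of 15 did (66.7%, 41.7 to 84.8). These intervals overlapped. That of the variant genes included the 64.7% of all protein-coding genes, and that of the clustered genes began just above it. The interval takes genes as independent, although the 53 clustered genes had 41 distinct summits. With each summit given only to the nearest TSS, the clustered share was 67.2%, so an excess over all genes is not shown. The best scores of the 53 clustered genes had a median of 62.48 and quartiles of 33.89 and 105.69, and ranged from 4.45 to 265.95. The 10 variant genes had a median of 190.92 and quartiles of 168.19 and 197.14, with a range of 119.86 to 264.91. The lowest variant score thus exceeded the scores of 41 of the 53 clustered genes, while 8 clustered genes scored above the median variant gene. Taking genes without a summit as 0, the medians over all members were 40.69 and 161.58. A score at or above the median of the whole list was reached by 14 of 67 clustered genes (20.9%) and 10 of 15 variant genes (66.7%), against 52% of all protein-coding genes. Clustered genes also shared summits, so that their 53 best summits were 41 distinct positions, whereas each variant gene had its own.

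**Figure D1:**
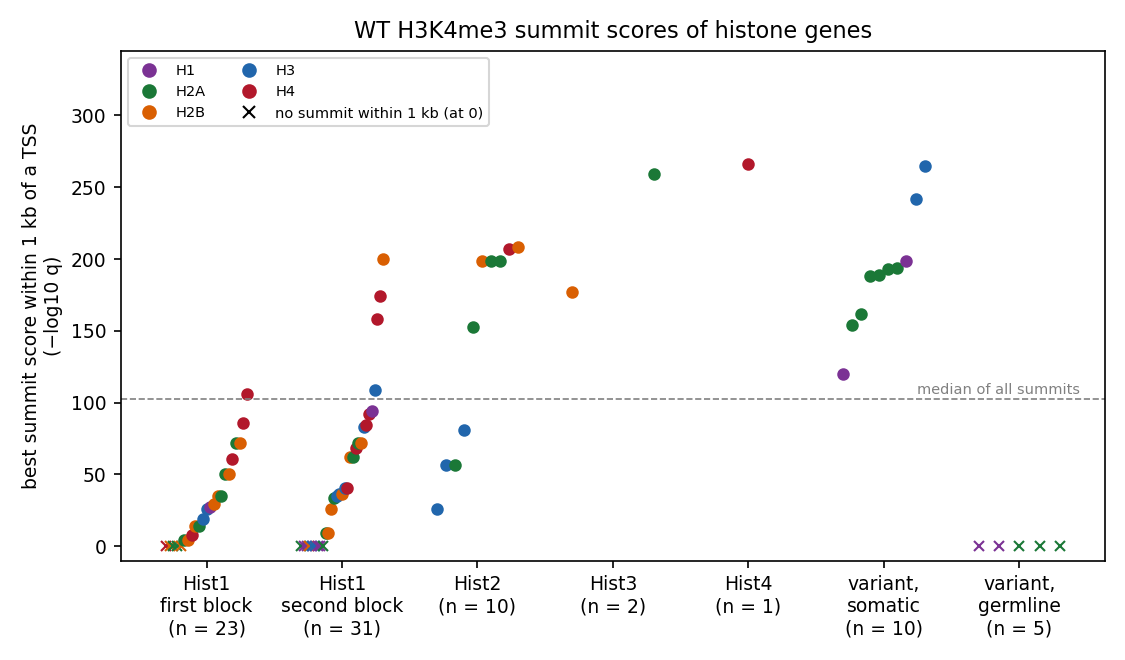
Best H3K4me3 summit score (−log10 q, vertical axis) of each histone gene in WT amygdala, by cluster or variant class, with points coloured by histone family, genes without a summit within 1 kb drawn as crosses at 0, and the dashed line at the median of all summits (102.3). Most Hist1 genes lie below the line, while the 10 somatic variant genes and 9 of the 13 genes of Hist2, Hist3 and Hist4 lie above it.

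All 10 somatic variant genes had a promoter summit, and the 5 germline variant genes had none. The median of the somatic variants, 190.92, was near that of all protein-coding genes with a promoter summit (194.6), and H1f0 lay below the lower quartile of those genes (129.8). H3f3b and H3f3a both encode the replacement histone H3.3, deposited at active genes and elsewhere throughout life, and scored 264.91 and 241.87, the highest values among variants in the 1 kb window. Both summits lay over 500 bp from the nearest TSS, so with a window of 500 bp H3f3b had no summit and H3f3a scored 186.32, below H1fx, H2afj, H2afz and H2afy2. H3f3b also had no summit when only its outermost TSS was used. H2afz and H2afv encode forms of H2A.Z, which occupies nucleosomes flanking start sites, and scored 192.78 and 154.38. H2afx, whose product is phosphorylated at DNA breaks, scored 189.06. H2afy and H2afy2 encode macroH2A proteins, which carry a large extra domain, and scored 161.58 and 188.00. H2afj scored 193.47. Of the linker variants, H1fx scored 198.37 and H1f0, the linker histone of differentiated cells, scored 119.86, the lowest of the variants with a summit. The 5 variant genes without a summit were H1foo, which encodes the oocyte linker histone, H1fnt, which encodes a testis linker histone, and H2afb1, H2afb2 and H2afb3, which encode short H2A forms of the testis. The nearest summit to H1foo lay 29668 bp away and the nearest to H1fnt 38644 bp away. Those nearest to the 3 H2afb genes on the X chromosome lay between 20060 and 2540243 bp away. Together with the germline clustered genes Hist1h1t, Hist1h2aa and Hist1h2ba, 0 of 8 germline histone genes had a promoter summit. The ratio of observed to expected CpG, counted up to 500 bp from the outermost TSS, had a median of 0.37 in these 8 genes, 0.86 in the 10 somatic variants, 0.88 in clustered genes and 0.55 in all protein-coding genes. The values overlapped. Hist1h2ba and Hist1h2aa, at 0.68 and 0.65, lay above the median of all genes. The somatic variants H3f3b and H2afy, at 0.25 and 0.23, lay below every germline gene, and the other somatic variants lay above all of them. Neither H3f3b nor H2afy had a summit within 1 kb of the outermost TSS, where the ratio was counted. Their ratios thus do not describe the starts with a summit. The H3f3b promoter printed above held 24 CpGs in 300 bases.

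In each family with both kinds of gene, the clustered genes with a summit had the lower median, although the families hold few variant genes and the H2A scores overlapped. Clustered H2A genes with a summit (14 of 18) had a median score of 59.48, and variant H2A genes (6 of 9) had 188.53. Hist3h2a (259.13) and Hist2h2ab and Hist2h2ac (198.37 each) nevertheless scored above every variant H2A gene, the highest of which was H2afj at 193.47. With a window of 500 bp, Hist3h2a and Hist2h2ab had no summit, while Hist2h2ac and H2afj kept their scores. The 10 of 12 clustered H3 genes with a summit had a median of 38.63 and reached at most 109.05, below both H3.3 genes. Of the clustered H1 genes, 2 of 6 had a summit, with scores of 27.29 and 94.07, below both H1fx and H1f0. Clustered H2B genes (15 of 18) had a median of 50.62 and clustered H4 genes (12 of 13) a median of 88.93. None of the genes called variant here, which is a grouping by symbol, belongs to the H2B or H4 family.

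The clustered genes differed among themselves, both between clusters and within them. GENCODE places the 54 Hist1 genes on chromosome 13 in 2 blocks, one at chr13:21715763-22043676 with 23 genes and the other at chr13:23531050-23934851 with 31 genes, 1.49 Mb apart. Of the Hist1 genes, 40 had a promoter summit (74.1%, 61.1 to 83.9), with a median score of 45.65, and 5 (9.26%) reached the median of the list. The first block had a median of 32.32 over 18 genes with a summit, and the second block had 65.53 over 22. Outside Hist1, all 13 genes had a summit, their median was 198.37, and 9 (69.2%) reached the median of the list, which is close to the variant genes. These genes had 10 distinct summits, and 198.37 is the score of a summit shared by Hist2h2ab, Hist2h2ac and Hist2h2be. With a window of 500 bp, Hist2h2ab, Hist2h2be, Hist2h3c1, Hist2h3c2 and Hist3h2a had no summit, and Hist2h2aa2 fell from 56.48 to 5.31. The lower scores of clustered genes were thus found mostly in Hist1.

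Hist2, a cluster of 50.3 kb at chr3:96219865-96270132, held 10 genes of the H2A, H2B, H3 and H4 families. Hist2h2bb scored 208.40 and Hist2h4, an H4 gene, scored 206.88. Hist2h2ab, Hist2h2ac and Hist2h2be, which encode H2A, H2A and H2B, shared a summit of 198.37. This summit lies within the coding sequence of Hist2h2ac. Hist2h2aa1 scored 152.58. The lowest scores of the cluster belonged to Hist2h3b at 81.14, to Hist2h3c2 and Hist2h2aa2, which shared 56.48, and to Hist2h3c1 at 26.11. All 3 H3 genes of the cluster were thus among its 4 lowest. Hist2h3b lay beside Hist2h2bb, and Hist2h3c1 beside Hist2h2aa1, both with higher scores. The surroundings of Hist2h3c1 and Hist2h3c2 were also among the least unique in sequence, with 19.6% and 20.6% of 75-base positions found once in the genome, and the part of this in their scores was not tested.

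Hist3, on chromosome 11, held Hist3h2a with 259.13 and Hist3h2ba with 176.79. Hist4h4 was alone on chromosome 6 and scored 265.95, the highest of the clustered genes and higher than 97.2% of the list. Its TSS lies 3.83 kb from that of the variant gene H2afj (193.47). Hist4h4 and the highest variant gene, H3f3b, had nearly equal scores.

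In Hist1, H4 genes had a higher median score than the other core families, although the ranges overlapped. The 10 of 11 H4 genes with a summit had a median of 85.14 and a range of 8.07 to 174.32. The 28 of 37 H2A, H2B and H3 genes with a summit had a median of 35.90 and a range of 4.45 to 200.24, from 19 distinct summits. The H4 genes were also more unique in sequence, with a median of 87.1% of 75-base positions found once in the genome, against 66.9%. The part of this in their scores was not tested. The highest in the first block was Hist1h4k at 105.69. In the second block, Hist1h2be scored 200.24, Hist1h4d 174.32, Hist1h4h 157.97 and Hist1h3e 109.05. The score of Hist1h2be came from a TSS that lies 35122 bp upstream of its start codon, beside the linker gene Hist1h1e, and the summit nearest to its coding sequence, 11 bp after the stop codon, scored 82.73. The lowest scores were 4.45, shared by Hist1h2ah and Hist1h2bk, 8.07 at Hist1h4n, and 9.05, shared by Hist1h2bf and Hist1h2ad. The summit of 4.45 was higher than only 5.65% of the list.

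**Figure D2:**
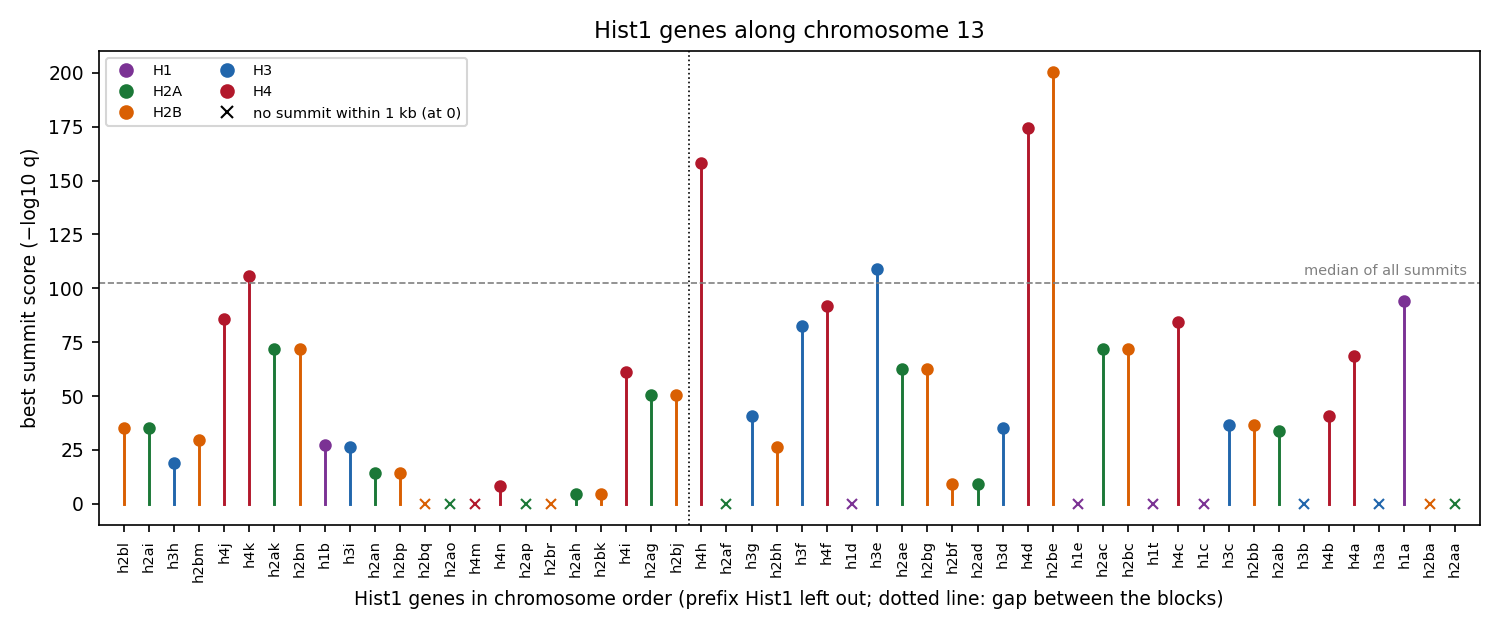
Best summit score (−log10 q, vertical axis) of the 54 Hist1 genes in their order along chromosome 13 (horizontal axis, not to scale), coloured by family, with crosses at 0 for genes without a summit within 1 kb, a dashed line at the median of all summits and a dotted line at the gap between the blocks. High and low genes alternate over short distances, and 5 genes in all pass the dashed line.

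Neighbouring H2A and H2B genes often shared their best summit. In all, 11 summits were the best summit of more than 1 gene and served 23 genes. Of these, 8 were shared by 1 H2A and 1 H2B gene of Hist1 transcribed away from each other, with TSSs 176 to 302 bp apart. Their scores ranged from 4.45 for Hist1h2ah and Hist1h2bk to 71.97 for Hist1h2ak and Hist1h2bn. In 7 of the 8 pairs the summit lay downstream of the H2B TSS and upstream of the H2A TSS, and in the pair Hist1h2bf and Hist1h2ad it lay on the H2A side. At Hist1h2bk, whose promoter is printed above, the summit lay 107 bp downstream of the TSS. With scores assigned to single positions, the H2A and H2B genes of such a pair could not be told apart.

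The linker histones, which bind the DNA between nucleosomes, had the fewest promoter summits of the clustered families. Hist1h1a had a summit of 94.07 and Hist1h1b one of 27.29. Hist1h1c, Hist1h1d, Hist1h1e and the testis gene Hist1h1t had none within 1 kb of a TSS, although the sequence around their start sites was 90.4% to 100% unique. Each of the 4 had a summit farther from its TSS, and 2 of these scored above the median of the list. The summit nearest to Hist1h1c scored 215.26, higher than 80.5% of the list, and lay 1222 bp downstream of the TSS and 543 bp after the stop codon. At Hist1h1e, the summit of 200.24 that was credited to Hist1h2be lay 1629 bp downstream of the TSS and 909 bp after the stop codon. At Hist1h1d, a summit of 97.37 lay 1937 bp downstream of the annotated TSS but 109 bp after the start codon, which GENCODE places 1828 bp from that TSS. At Hist1h1t, a summit of 84.34 lay 2352 bp downstream of the TSS, and it was the best summit of the neighbouring gene Hist1h4c. At Hist1h1b, a further summit of 73.99 lay 693 bp after the stop codon. The summits of Hist1h1c, Hist1h1e and this one of Hist1h1b thus lay beyond the coding sequence, while those of Hist1h1a and Hist1h1d lay near its beginning. The mark in the wider surroundings of these genes is not described by the 1 kb window.

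In total, 14 clustered genes had no summit within 1 kb of a TSS. Beside the 4 linker genes, these were the germline genes Hist1h2aa and Hist1h2ba and the first-block genes Hist1h2bq, Hist1h2ao, Hist1h4m, Hist1h2ap and Hist1h2br. The remaining 3 were Hist1h2af, Hist1h3a and Hist1h3b, with the nearest summit 1567, 1297 and 1044 bp from the TSS. The 5 first-block genes belong to a duplicated stretch. Hist1h2bq and Hist1h2br were identical over 2001 bases around the start codon, with 0 bases different, as were Hist1h2ao and Hist1h2ap. Between 0% and 6.33% of the 75-base positions around their TSSs occurred once in the genome, so reads from these genes could hardly be placed, and absence of a summit there was not detectable as absence of the mark. Hist1h4n, in the same stretch, was 8.87% unique and had the summit of 8.07. Of the 19 clustered and variant genes without a promoter summit, 11 had a summit within 3 kb and 8 did not.

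Summits of clustered genes lay mostly downstream of the TSS, as they did in other genes. Of the 53 clustered genes, 38 had their summit downstream (71.7%), with a median position of 152 bp downstream. The shares were 7 of 10 for variant genes and 79.3% for all protein-coding genes with a promoter summit, whose median was 171 bp. H4 summits lay downstream in 11 of 12 genes and H2B summits in 12 of 15, whereas H2A summits lay downstream in 6 of 14. Of the 8 upstream H2A summits, 7 were those shared with an H2B gene, for which the same summit lay downstream. The H2A and H2B counts are thus not separate observations. Clustered genes had a median length of 539 bp, against 2055 bp for variant genes. In clustered genes, the summit fell within the coding sequence in 27 of 53 genes, before it in 16 and after it in 10. Among variant genes it fell before the coding sequence in 6 of 10. The H3.3 genes and H2afx had summits far into the gene, 706 bp from the nearest TSS at H3f3b, 843 bp at H3f3a and 851 bp at H2afx.

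**Figure D3:**
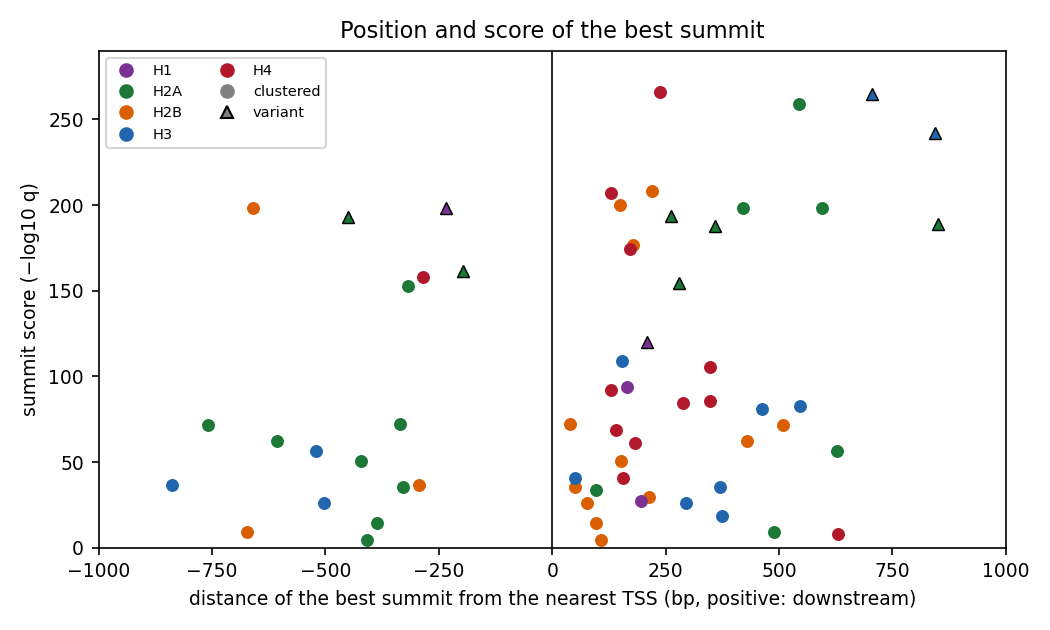
Score (−log10 q, vertical axis) and distance of the best summit from the nearest annotated TSS (bp, horizontal axis, positive downstream) for the 53 clustered genes (circles) and 10 variant genes (triangles) with a summit within 1 kb, coloured by family. H4 genes lie to the right of the TSS in 11 of 12 cases, and H2A genes lie on both sides, 6 of 14 to the right. Of the 8 H2A genes to the left, 7 share their summit with an H2B gene drawn to the right.

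Histone genes are near-copies of each other, and only uniquely mapped reads had been used, so the uniqueness of the sequence was measured beside the scores. Of the 75-base positions within 1 kb of a TSS, the share without another match in the genome at up to 2 mismatches had a median of 74.8% for clustered genes (range 0 to 100) and 94.3% for variant genes (57.9 to 100). With exact matches alone, which is a laxer measure, the medians were 83.4% and 100%. The first Hist1 block had the lowest median, 66.1%, and the second had 82.5%. Among clustered genes with a summit, the score and the unique share had a Spearman rho of 0.373 over 53 genes, which share summits and library. In the Hist1 genes rho was 0.286 over 40, and in the variant genes it was −0.557 over 10. Of the 10 clustered genes under 50% unique, 5 had a summit, and of the 45 genes from 50 to 90% unique, 42 did.

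In genes whose surroundings were at least 90% unique, the few clustered genes with a summit had a median near that of variant genes with one. A smaller share of the clustered genes had a summit. Of the 12 clustered genes at least 90% unique, 6 had a summit, namely Hist4h4, Hist2h4, Hist1h2be, Hist1h4d, Hist1h1a and Hist1h1b. Their median was 187.28 with a range of 27.29 to 265.95, against 190.92 for the 10 variant genes with a summit, which were all at least 90% unique. No H2A or H3 gene was among these clustered genes with a summit, so the set differs in family as well as in uniqueness. The score of Hist1h2be belongs to a TSS 35122 bp from its start codon. The 6 without a summit were the 4 linker genes named above, Hist1h2aa and Hist1h2ba. Of these, Hist1h1t, Hist1h2aa and Hist1h2ba are germline genes, and Hist1h1d gained a summit with RefSeq TSSs. Of the 12 variant genes at least 90% unique, 10 had a summit. With genes without a summit taken as 0, the medians over all such genes were 13.65 for clustered and 188.53 for variant genes. With exact matches alone, 25 clustered genes were at least 90% unique, 18 of them had a summit, and the median was 166.15. The Hist1 genes among these numbered 18, and the 11 with a summit had a median of 91.92. Among clustered genes with a summit, the median score was 56.48 under 50% unique, 61.72 from 50 to 90% and 187.28 at 90% or more. With genes without a summit taken as 0, the medians over all clustered genes in these ranges were 4.04, 50.62 and 13.65. Scores thus did not rise steadily with uniqueness over all clustered genes. The part of uniqueness in the difference between clustered and variant genes was not tested.

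Uniqueness was also counted at the summits themselves. For 16 of the 53 clustered genes, no 75-base read lying over the summit was unique at up to 2 mismatches, and for 20 every such read was. The median scores of these sets were 45.65 and 129.13, and their ranges overlapped, from 4.45 to 176.79 and from 9.05 to 265.95. With exact matches alone, 2 genes had no unique read over the summit, Hist1h2ah and Hist1h2bk, which share the summit of 4.45. Variant genes had unique reads over every summit. Peak callers can extend reads toward the fragment length, so that a summit may stand where no unique read lies. The part of this in the scores was not tested.

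**Figure D4:**
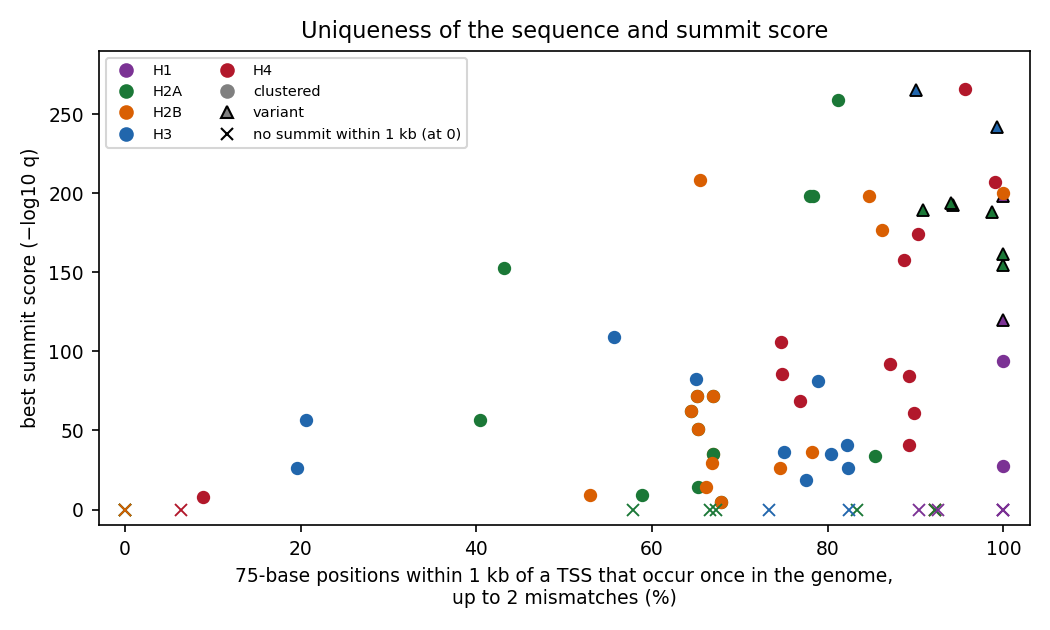
Best summit score (−log10 q, vertical axis) against the share of 75-base positions within 1 kb of a TSS that occur once in the genome at up to 2 mismatches (percent, horizontal axis) for clustered (circles) and variant (triangles) genes, coloured by family, with crosses at 0 for genes without a summit. The 10 variant genes with a summit lie at 90% or more, while most clustered genes lie between 50% and 90% with scores from 4.45 to 259.13.

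Differences in score by CpG content or promoter element were small beside the range of scores. The ratio of observed to expected CpG was at least 0.6 in 72 of the 82 genes, against 46% of all protein-coding genes, and had a Spearman rho with the score of −0.238 over the 53 clustered genes with a summit. Clustered genes with TATAAA had a summit in 29 of 35 cases, with a median of 62.48, and those without it in 20 of 27, with a median of 53.55. For ATTTGCAT, the medians were 62.48 over 12 genes with it and 56.48 over 37 without. The 9 clustered genes without CCAAT, all of them H4, had a summit in 8 cases with a median of 88.93, against 50.62 for 41 genes with CCAAT.

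The listed genes that process, carry and deposit histones, or act in S phase, all had a promoter summit, against 64.7% of all protein-coding genes. The 39 genes had a median score of 185.36 and a range of 22.40 to 261.06, near the median of 194.6 over all protein-coding genes with a promoter summit. The 6 genes for transcription and 3′ processing of clustered histone messages had a median of 214.34. Slbp, whose product binds the stem-loop printed above, scored 255.29, and Npat, which encodes a coactivator of clustered histone genes, scored 249.53. The lowest of the 6 was Lsm11, a subunit of the U7 particle that cuts these messages, at 128.62. All 6 scored above the median of the Hist1 genes (45.65). The 19 chaperone and remodeller genes had a median of 205.86. Among them, Hira, which encodes the H3.3 chaperone subunit, scored 220.93, whereas Chaf1a and Chaf1b, which encode subunits of the chaperone that deposits histones behind the replication fork, scored 37.94 and 53.53. The 14 S phase and division genes had a median of 117.51, with Mcm7 at 232.33 and the proliferation genes Mki67 at 68.59 and Top2a at 22.40. The surroundings of the 39 genes were 85.7% to 100% unique.

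**Figure D5:**
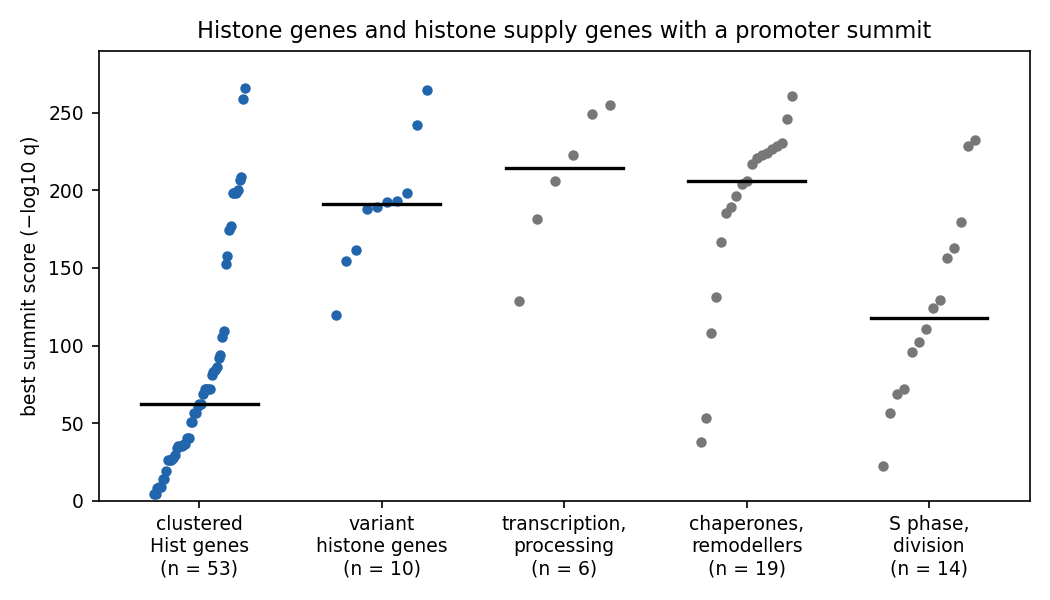
Best summit score (−log10 q, vertical axis) of clustered and variant histone genes with a promoter summit (blue) and of genes for histone transcription and processing, for chaperones and remodellers and for S phase (grey), with a bar at the median of each set. The medians are 62.48, 190.92, 214.34, 205.86 and 117.51 from left to right.

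Other genes and other summits within the Hist1 blocks were marked unevenly as well. Of 9 protein-coding genes without a histone symbol in the blocks, 4 had a promoter summit. These were Zfp184 with 236.93, Hfe with 101.41, Pom121l2 with 34.61 and Prss16 with 21.69, and the others were Trim38, Slc17a1, Slc17a2, Slc17a3 and Slc17a4. A score such as that of Zfp184 stood in the first block beside Hist1 genes of 105.69 or less. The first block held 35 summits, of which 19 were not within 1 kb of a histone TSS and had a median of 34.61. The second block held 28, of which 6 were not, with a median of 90.05 and a maximum of 215.26 at Hist1h1c.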

How the data were processed

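H3K4me3 ChIP-seq libraries were made from about 20000 amygdala nuclei per mouse after digestion with micrococcal nuclease, in 11 H3K4me3 and 4 input samples. According to the Methods, the authors aligned single-end reads to mm10 with Bowtie at up to 2 mismatches, kept unique reads and called peaks with MACS2 2.1.0.20140616 against the input at a q-value under 0.1. The authors deposited the WT summits of both mice as 1 list, in which each summit spans 1 bp and carries a score. The file does not name the scale of this score. It was read as −log10 of the q-value because the lowest deposited value, 1.18, lies just above the 1 that the q filter implies. How Bowtie was told to define a unique read is not given in the sources used here. There were 0 per-sample columns without a matching sample.

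Scores were joined to GENCODE M21 start sites on GRCm38 (mm10). Uniqueness was counted by comparing each 75-base position with the whole primary assembly, at up to 2 mismatches and, as an addition after seeing the data, with exact matches. CpG was counted up to 500 bp from the outermost TSS on each side. Shares of genes have 95% Wilson intervals. Named genes were all variant and linker genes, all clustered genes outside Hist1, the 5 highest and 5 lowest clustered scores and all members without a summit. Other genes given with values, such as Hist1h4h, Hist1h4k, Hist1h3e and the neighbours of Hist1, were chosen after their values were seen. The members and lists were chosen with earlier results of these data known. A planned comparison of protein sequences was not run. Alternatives were windows of 500 bp and 3 kb, a score threshold, other TSS sets, summits given to the nearest TSS only, members at least 50% unique, and germline genes left out. The assignment and the uniqueness count were tested on simulated data. Python 3.11.15, numpy 2.4.6, pandas 2.3.3, scipy 1.17.1, numba 0.67.0 and matplotlib 3.10.9 were used.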

Additional observations from a re-analysis of the deposited data

How the results depend on the processing

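The share of clustered genes with a promoter summit depended on the definition of a promoter. It was 79.1% at 1 kb, 65.7% at 500 bp and 95.5% at 3 kb, where 11 genes gained a summit, the 4 linker genes without one among them. It was 67.2% with each summit given only to the nearest TSS, and 20.9% for summits at or above the median score, whose clustered median was 198.37 by construction. Without germline genes, the variant share was 100% and not 66.7%. Counting a gene without a summit as 0 and ties as equal parts, the variant gene scored higher in 62.7% of clustered-variant pairs. This share was 88.4% without germline genes. No interval is given for it here, because pairs that hold the same gene are not independent, so its distance from 50% cannot be judged. All other values of the shares of genes with a summit and of the medians stayed within the intervals of the reported values. For the medians, these intervals were 36.6 to 82.7 for clustered genes and 154 to 242 for variant genes. They take genes as independent, although the 53 clustered genes had 41 distinct summits. The share of pairs was lowest, at 51.3%, with the outermost TSS only, where H2afy and H3f3b had no summit. RefSeq TSSs, added after seeing the data, gave a summit to Hist1h1d alone. Of 50 named genes, 11 changed score at 500 bp and 16 at 3 kb. No paired analysis was possible because both WT mice are in 1 list, and for the same reason no mouse could be left out. The depth behind each score is unknown, so a gene without a summit cannot be called unmarked.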
